A study of Arabidopsis thaliana with 64 samples.

Results

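L4-1 and L4-2 are F4 lines of Arabidopsis thaliana that descend from a cross of the accessions C24 and Landsberg erecta (Ler), and the protocols call such lines hybrid mimics. Their labels share the prefix L4, and the pedigree that joins them is not given in the sources used here. RNA of the lines was compared in 8 of the series' 64 libraries, 2 of each line at 15 days after sowing (DAS, the aerial tissue of seedlings) and 2 of each at 28 DAS (the 4 largest leaves). Every library came from a pool of 5 plants without treatment or transgene, so the p-values measure the spread between pools. All 8 libraries belonged to the second growth batch, raised on sucrose agar and then in soil under SYLVANIA tubes. The inbred parents C24 and Ler and the F1 hybrid LerxC24 of that batch, also 2 pools each per age, served as references. Lines L3-1 and L3-2 served for the estimate of spread. Among the 15 DAS libraries, those of L4-1 were numbered in a later run of sample records than those of L4-2 and of these references. What the numbering stands for was not tested, and in seedlings it cannot be told apart from the line. The total count of the 8 libraries ran from 40347313 to 102722274, with reads on 28740 to 31232 genes.

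One library carries conflicting labels. The title of L4-2 pool B of 28 DAS gives 28 DAS, and its tissue field gives seedlings of 15 days. Its log2 levels correlated at 0.929 to 0.976 with the other 28 DAS libraries of the batch and at 0.742 to 0.781 with those of 15 DAS, over 13535 genes. It was grouped by its title, and the counts below are also given without it.

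Selfing after a cross fixes a different mosaic of parental chromosome segments in each line step by step, and F4 lines are not yet fully fixed. Sister lines can thus carry different parental alleles in some places and the same alleles in others. A gene whose level is set by its own allele then shows the parental difference again between the sisters. Glucosinolates, on which part of the seedling results turn, are sulfur-rich defence compounds of the cabbage order, made from methionine or tryptophan and released as toxic products when the tissue is damaged.

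Over both ages, 675 of 29735 tested genes (2.27%) differed between the lines at a Benjamini-Hochberg adjusted p below 0.05 in the two-sided quasi-likelihood F test of edgeR. Of these, 381 (1.28%) were higher and 294 (0.989%) lower in L4-1. Seedlings gave 1137 calls (3.82%), 631 higher (2.12%) and 506 lower (1.7%) in L4-1, and leaves of 28 DAS gave 277 (0.932%), 131 higher (0.441%) and 146 lower (0.491%). A difference was held, that is, called at each age in the same direction, by 112 genes (0.377%), 49 higher and 63 lower in L4-1. These made up 40.4% of the 28 DAS calls and 9.85% of the 15 DAS calls. One gene, AT1G60110, annotated as a mannose-binding lectin, was called at both ages in opposite directions. A further 1024 genes were called at 15 DAS and not at 28 DAS, and 164 at 28 DAS and not at 15 DAS. A call at one age alone does not show that the ages differ. The line-by-age interaction, which tests that, was called for 330 genes (1.11%; 136 or 0.457% with a higher and 194 or 0.652% with a lower difference at 28 DAS), 207 of the 1024 and 43 of the 164 among them.

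The counts moved with the libraries and the model. Without 28 DAS L4-2 pool B, they were 486 over both ages, 1072 at 15 DAS, 169 at 28 DAS, 120 for the interaction and 86 held genes. The 15 DAS count was 281 without L4-1 pool A of that age, 560 without L4-1 pool B, 208 without L4-2 pool A and 709 without L4-2 pool B. Leaving out seedling L4-1 pool A or L4-2 pool A took the count over both ages to 392 or 368, and the latter took the held genes to 69. The 28 DAS count was 174 without L4-1 pool B of that age. The interaction count fell to 30, 114, 18 and 160 without the 4 seedling libraries in the order above, and to 123 and 154 without 28 DAS L4-1 pool B and L4-2 pool A. Every fit that leaves 1 library in a group assumes that it varies like the other groups.

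**Figure D1:**
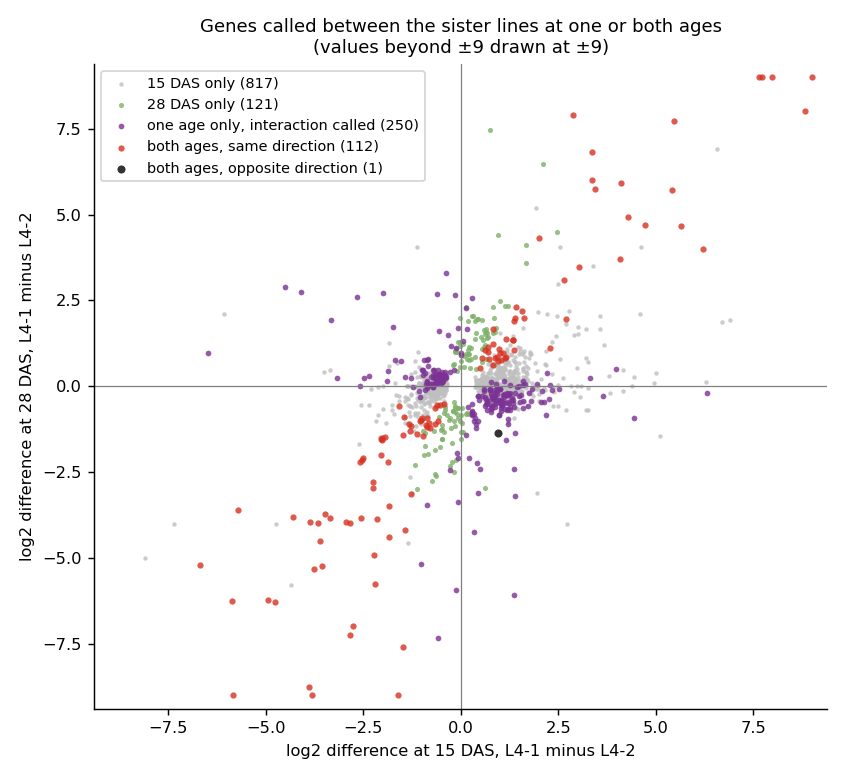
The plot sets the log2 difference between L4-1 and L4-2 at 28 DAS (vertical) against that at 15 DAS (horizontal) for genes called at either age, 1 point per gene, coloured by where the gene was called. The 112 held genes lie along the rising diagonal, while most genes called at 15 DAS alone lie near 0 on the vertical axis.

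Of the 112 held genes, 77 are annotated as protein coding, 28 as pseudogenes and 7 as non-coding RNA genes. Their median absolute log2 difference was 1.89 at 15 DAS and 2.16 at 28 DAS, and 27 of them overlap another annotated gene. The handling of strand in the counting is not given in the sources used here, so reads of overlapping genes cannot be told apart.

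SADHU1-2 is a member of the Sadhu family of retroposons. Its L4-1 seedling libraries held 22.3 and 20.6 CPM (counts scaled to library size) against 2.16 and 1.98 in L4-2, and the leaf libraries held 12.3 and 9.35 against 0.0944 and 0.0934. L4-1 was high at both ages with no overlap, and the log2 difference over both ages was 5.10 ± 0.20 (SE, adjusted p = 2.77e-11). Genes named for the largest differences over both ages had to show no overlap at either age. Of all 29735 tested genes, 3142 (10.6%) met that condition in the same direction at both ages. A second Sadhu locus, SADHU2-1, which overlaps AT1G35110, held 14.4 and 11.8 CPM in L4-1 seedlings against 0 and 0.0399 in L4-2. At 28 DAS it had 4.77 and 6.41 CPM in L4-1 and no count in either L4-2 library, so it was at least 75.2-fold higher in L4-1, taking 3 counts in the shallower L4-2 library as the floor. Floors of this kind cover counting error only, while the SE comes from the fit and includes the spread between pools.

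Pseudogene loci without a symbol also had large gaps. AT1G42852 held 5.04 and 4.35 CPM in L4-1 seedlings against 0.0132 and 0.02 in L4-2, which were 1 and 2 counts. At 28 DAS its L4-1 libraries held 4.02 and 5.16 CPM and neither L4-2 library had a count, a difference of at least 61.7-fold by the same floor. AT1G35115 held 48.0 and 48.5 CPM in L4-1 seedlings against 0 and 0.190, and 24.1 and 25.4 in L4-1 leaves against 0.132 and 0.0311. In the other direction, AT2G24760, which overlaps AT2G24755, held 0.173 and 0.231 CPM in L4-1 seedlings against 9.91 and 14 in L4-2, and 0.273 and 0.0492 against 15.1 and 5.79 in leaves. None of these groups overlapped, as the rule for naming them required.

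NAC016, a transcription factor gene known to promote leaf senescence, held 9.37 and 12 CPM in L4-1 seedlings against 1.93 and 1.48 in L4-2, and 18.9 and 26.5 against 2.51 and 2.77 in leaves. The lines did not overlap at either age, as the rule for naming it required. The log2 difference was 2.65 ± 0.33 (adjusted p = 0.000183) at 15 DAS and 3.11 ± 0.34 (3.93e-05) at 28 DAS in edgeR. ECS1, a gene for a small cell wall protein, went the other way. It held 0.821 and 1.07 CPM in L4-1 seedlings against 81.6 and 113 in L4-2, and 9.52 and 6.08 against 304 and 275 in leaves. L4-1 was the low line throughout, with log2 differences of -6.68 ± 0.66 at 15 DAS and -5.22 ± 0.61 at 28 DAS (adjusted p = 1.55e-05 and 8.94e-05). GRF11, which encodes a 14-3-3 protein, held 1.49 and 2.5 CPM in L4-1 seedlings against 13.4 and 10.5, and 2.68 and 2.88 against 11.3 and 14.2 in leaves (log2 difference over both ages -2.39 ± 0.23, adjusted p = 5.82e-06). The calls of NAC016 and ECS1 at each age and over both stayed below the threshold under each alternative tried, and that of GRF11 at 28 DAS was lost in a fit of the 28 DAS libraries alone (adjusted p = 0.056).

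UGT78D1, the flavonol rhamnosyltransferase, was lower in L4-1 at both ages and by more in leaves. Its libraries held 5.08 and 5.68 CPM against 14.1 and 14.7 in seedlings, and 4.04 and 4.22 against 85.1 and 66.9 in leaves. The log2 difference went from -1.42 ± 0.27 (adjusted p = 0.00691) to -4.20 ± 0.31 (2.09e-07), and the change between the ages was itself called (-2.78 ± 0.39, adjusted p = 0.00506). The seedling call was lost without 15 DAS L4-1 pool A (adjusted p = 0.11) or L4-2 pool A (0.052). AT1G66100, annotated as a plant thionin, one of a family of small antimicrobial peptides, had a wide gap in leaves. It held 1.73 and 1.77 CPM in L4-1 seedlings against 25.4 and 23.7 in L4-2, and 0.318 and 0.172 in L4-1 leaves against 417 and 606, with an interaction of -7.30 ± 0.93 (adjusted p = 0.00194). AT1G66860, annotated as a glutamine amidotransferase-like protein, held 1.16 and 1.48 against 17.0 and 21.8 CPM in seedlings, and 0 and 0.0246 against 8.06 and 6.88 in leaves.

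Other held genes had smaller gaps or less stable calls. EXT4 (an extensin of the cell wall) was higher in L4-1 over both ages by 1.88 ± 0.31 log2 units (adjusted p = 0.00198), and PR5K (a receptor kinase with a thaumatin-like outer domain) by 1.86 ± 0.26 (0.00041). AIG1 (a GTP-binding protein gene induced by bacteria), ZW9 (a TRAF-like protein) and SAUR63 (of the auxin-induced SAUR family) were lower, with log2 differences of -4.05 ± 0.64, -3.60 ± 0.49 and -2.01 ± 0.23. These 5 calls over both ages held with each library left out, with adjusted p over both ages of 0.00137, 0.000266 and 3.85e-05 for the last 3. Of their calls at single ages, that of SAUR63 at 15 DAS held with each library left out and the other 9 did not. For example, that of EXT4 at 15 DAS was lost without any one of the 4 seedling libraries or either 28 DAS L4-2 pool (adjusted p = 0.053 to 0.38) and that of AIG1 at 28 DAS without any one of the 8 (0.051 to 0.28). MRD1 and HEI10, the latter a dose-dependent factor of meiotic crossing over, overlap each other and gave nearly the same values (-1.79 ± 0.20 and -1.71 ± 0.19 over both ages), so their reads may be shared. Their 28 DAS calls were lost without L4-1 pool B of that age (adjusted p = 0.14 and 0.12) or L4-2 pool B (0.10 and 0.091).

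**Figure D2:**
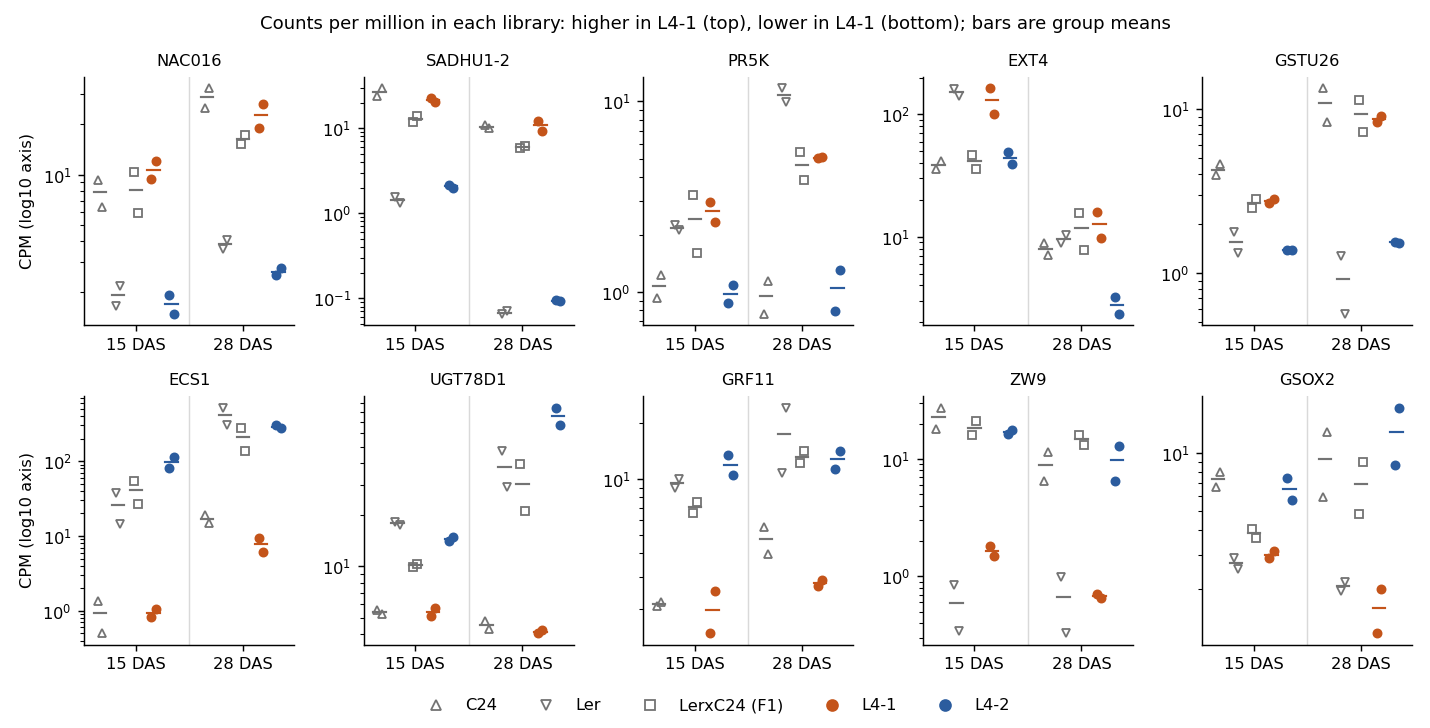
CPM of 10 genes in each library (logarithmic axis), with C24, Ler and LerxC24 of the same batch in grey and bars at group means. In each panel L4-1 (orange) and L4-2 (blue) do not overlap at either age, in the same direction at both, as for 10.6% of all tested genes. One line lies near C24 and the other near Ler in the panels of NAC016, SADHU1-2 and GSTU26.

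Most held genes also differed between the parents. The test of Ler against C24 compares no L4 library. It takes the spread of each gene from the same fit of 28 libraries as the sister tests, so the calls are not independent. It called 6457 genes (21.7%), and 2214 (7.45%) were called with at least 1 log2 unit. The latter group held 98 of the 112 held genes (87.5%), 299 of the 675 called over both ages (44.3%), 165 of the 277 of 28 DAS (59.6%), 283 of the 1137 of 15 DAS (24.9%) and 61 of the 330 interaction genes (18.5%). With no minimum fold the share over both ages was 70.4%. L4-1 lay on the C24 side for 48 of the 98 held genes and on the Ler side for 50. Among the 23278 genes with no parental call, 200 (0.859%) were called between the sisters over both ages, and 7 were held. SADHU1-2 had 26.5 CPM in C24 seedlings and 1.45 in Ler, so that L4-1 stood near C24 and L4-2 near Ler. ZW9 had the reverse placing, with 22.6 CPM in C24 seedlings, 0.592 in Ler, a mean of 1.65 in L4-1 and of 16.9 in L4-2.

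The genes called between the sisters were concentrated on chromosome 1. It held 340 of the 675 calls over both ages (4.39% of its 7752 tested genes) and 80 of the 112 held genes. The other chromosomes had 93, 62, 66 and 114 calls from chromosome 2 to 5 (1.97, 1.06, 1.47 and 1.68% of their genes), with 16, 1, 3 and 12 held. Interaction calls were spread more evenly, from 0.922% of the tested genes of chromosome 3 to 1.46% of chromosome 1.

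To place each line between the parents, 776 genes with a called parental difference of at least 2 log2 units were used. A position of 1 stands for the C24 level and 0 for the Ler level, and on the log2 scale values above 0.75 or below 0.25 were taken as the parental level. Both lines were at the C24 level for 162 genes and both at the Ler level for 153. They were at opposite parental levels for 72, of which L4-1 was at the C24 level for 44 and L4-2 for 28. With at least 4 log2 units between the parents, 30 of 248 genes were at opposite levels. The line at the C24 level was not the same along chromosome 1. Between AT1G16150 and AT1G42852, 32 of 67 such genes had L4-1 at the C24 level and L4-2 at the Ler level, and between AT1G47950 and AT1G69880, 18 of 65 had the reverse.

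On the log2 scale the F1 hybrid itself sits nearer the higher parent (median position 0.71 for genes high in C24 and 0.28 for genes high in Ler), and on the linear CPM scale it sits at 0.46 and 0.50. A running median of the linear position over 11 genes in chromosomal order, chosen after the values were seen, gave 7 stretches in which the lines differed by over 0.25. In the stretch of chromosome 1 from AT1G17170 to AT1G36400 the median position was 0.72 in L4-1 and 0.02 in L4-2. From AT1G46552 to AT1G78860 it was 0.05 in L4-1 and 0.60 in L4-2. L4-1 was also nearer Ler from AT2G01090 to AT2G07717 (0.04 against 0.50), and in a pair of stretches of chromosome 5 that began at AT5G38280 and AT5G44590 (0.48 against 0.87, and 0.58 against 0.91). It was nearer C24 from AT2G23985 to AT2G27385 (1.00 against 0.63) and from AT4G15390 to AT4G25310 (0.34 against 0.00).

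The stretches held 395 of the 675 calls over both ages (4.31% of their 9162 tested genes) and 87 of the 112 held genes, and the other 20573 genes held 280 calls (1.36%) and 25 held genes. The 776 placing genes set the stretches, and 72 of the 112 held genes are among them, so the count of held genes inside follows in part from how the stretches were drawn. Of the other 40 held genes, 32 lay inside (0.359% of the tested genes there that were not used for placing) and 8 outside (0.0399%). Among the genes that were not used for placing, 3.13% were called over both ages inside the stretches and 1.15% outside. That share was 4.76% and 3.81% in the chromosome 1 stretches that began at AT1G17170 and AT1G46552. It lay below the outside share from AT2G01090 to AT2G07717 (0.871%) and from AT4G15390 to AT4G25310 (0.967%, with 0 held genes). Interaction calls made up 1.38% of the genes inside and 0.992% of those outside.

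Seedlings of the lines differed in the genes of glucosinolate synthesis. Of 39 tested genes of the list, 18 were higher in L4-1 at 15 DAS and none lower in edgeR (29 at an unadjusted p below 0.05; by DESeq2, 24 higher and 1 lower). The median log2 difference of the list was 0.74 at 15 DAS, where that of all genes was 0.01 and 2.12% of all genes were called higher, and 37 of the 39 differences were positive. At 28 DAS the median was -0.12 and 1 gene was called, GSOX2, which was lower in L4-1. The interaction was called for 8 members, all with a lower difference at 28 DAS. It was called for 0 members without seedling L4-2 pool A (24 at an unadjusted p below 0.05), for 1 without seedling L4-1 pool A, and for 4 or 5 without any other one of the 8 libraries. The fit of the 8 libraries alone called 0 (27 at an unadjusted p below 0.05).

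By step, 5 of 8 genes of side-chain elongation of methionine were higher in L4-1 seedlings, as were 3 of 3 of the core of the methionine branch. Of the remaining core steps 5 of 6 genes were higher (SUR1, UGT74B1, UGT74C1, SOT17 and SOT18), and SOT16 was not called. These 6 genes were not split by branch, so their count does not show a rise common to both branches. Of side-chain modification 3 of 8 were higher. None of the 4 enzyme genes listed for the tryptophan branch (CYP79B2, CYP79B3, CYP83B1 and CYP81F2) was called, and none of the 3 MYB regulators of the methionine branch. The medians of these 2 groups were 0.81 and 0.46. The list holds 4 tested genes of breakdown, of which NSP1, a nitrile-specifier gene, was higher, and of 3 regulators of the tryptophan branch MYB34 was higher. The call of NSP1 was lost without any one of the 4 seedling libraries (adjusted p = 0.15 to 0.31) or either 28 DAS L4-2 pool (0.053 in both), and that of MYB34 without seedling L4-1 pool A (0.32), L4-2 pool A (0.31) or L4-2 pool B (0.059).

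GSOX1, an S-oxygenase of the side chain, held 42.7 and 43.1 CPM in L4-1 seedlings against 19.7 and 22.8 in L4-2, and 127 and 121 against 127 and 135 in leaves. The lines were apart in seedlings and close in leaves (log2 difference 1.01 ± 0.13, adjusted p = 0.000235, and -0.07 ± 0.13). CYP79F1, the first enzyme of the methionine core, held 151 and 165 CPM against 49.1 and 55.3 in seedlings and 416 and 506 against 594 and 642 in leaves. Its log2 difference changed from 1.6 ± 0.24 (adjusted p = 0.000877) to -0.42 ± 0.23 (0.505), with an interaction of -2.02 ± 0.33 (0.0094) that was lost without seedling L4-2 pool A (0.071). IPMI2, an isopropylmalate isomerase subunit of chain elongation, held 110 and 89.0 CPM against 43.1 and 44.1 in seedlings and 403 and 349 against 462 and 444 in leaves, with L4-1 higher in seedlings (1.19 ± 0.17, adjusted p = 0.000852). AOP3, which converts the side chain to its hydroxyalkyl form, held 126 and 170 CPM against 48.9 and 40.1 in seedlings, and its call (1.73 ± 0.39, adjusted p = 0.0184) was lost without any one of the seedling libraries (0.055 to 0.14). AOP2, which makes the alkenyl form, held 97.9 and 79.4 against 40.5 and 68.5 CPM and was not called (adjusted p = 0.172). Neither was the myrosinase gene TGG2 (log2 difference 0.52 ± 0.18, adjusted p = 0.12). In seedlings AOP3 averaged 0.675 CPM in C24 and 190 in Ler, AOP2 257 and 1.63, and TGG2 1664 and 7.77. Whether alleles of both parents were present within a pool was not tested.

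Sulfate assimilation supplies the sulfur of these compounds. Of 14 genes, 5 were higher in L4-1 seedlings and none lower in edgeR (10 at an unadjusted p below 0.05, 7 higher by DESeq2), with a median log2 difference of 1.24, where 2.12% of all genes were called higher and 1.7% lower and the median of all genes was 0.01. The median at 28 DAS was 0.19 with no call (0 at an unadjusted p below 0.05, 0 by DESeq2). The line-by-age interaction was called for 1 of the 14 genes, APR1 (4 at an unadjusted p below 0.05, 1 by DESeq2). For the others the ages were not shown to differ. APR1, an enzyme of sulfate reduction, held 62.9 and 59.5 CPM in L4-1 seedlings against 17.9 and 11.3 in L4-2, and 340 and 237 against 326 and 304 in leaves. The seedling gap of 2.07 ± 0.35 log2 units (adjusted p = 0.00235) held with each library left out. The interaction of APR1 (-2.20 ± 0.47, adjusted p = 0.0352 in edgeR) was less stable. It was lost in the fits of the 8 and of all 64 libraries, and without any one seedling library. The call of the root sulfate importer SULTR1;2 (1.64 ± 0.37, adjusted p = 0.0185) was lost without seedling L4-1 pool A or L4-2 pool B (0.15 in both), that of SHM7 (1.59 ± 0.32, 0.00872) without the same libraries (0.13 and 0.091), that of APR3 without any one of the 8 libraries (0.052 to 0.26), and that of the beta-glucosidase gene BGLU28 without any one seedling library or either 28 DAS L4-2 pool (0.055 to 0.28).

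**Figure D3:**
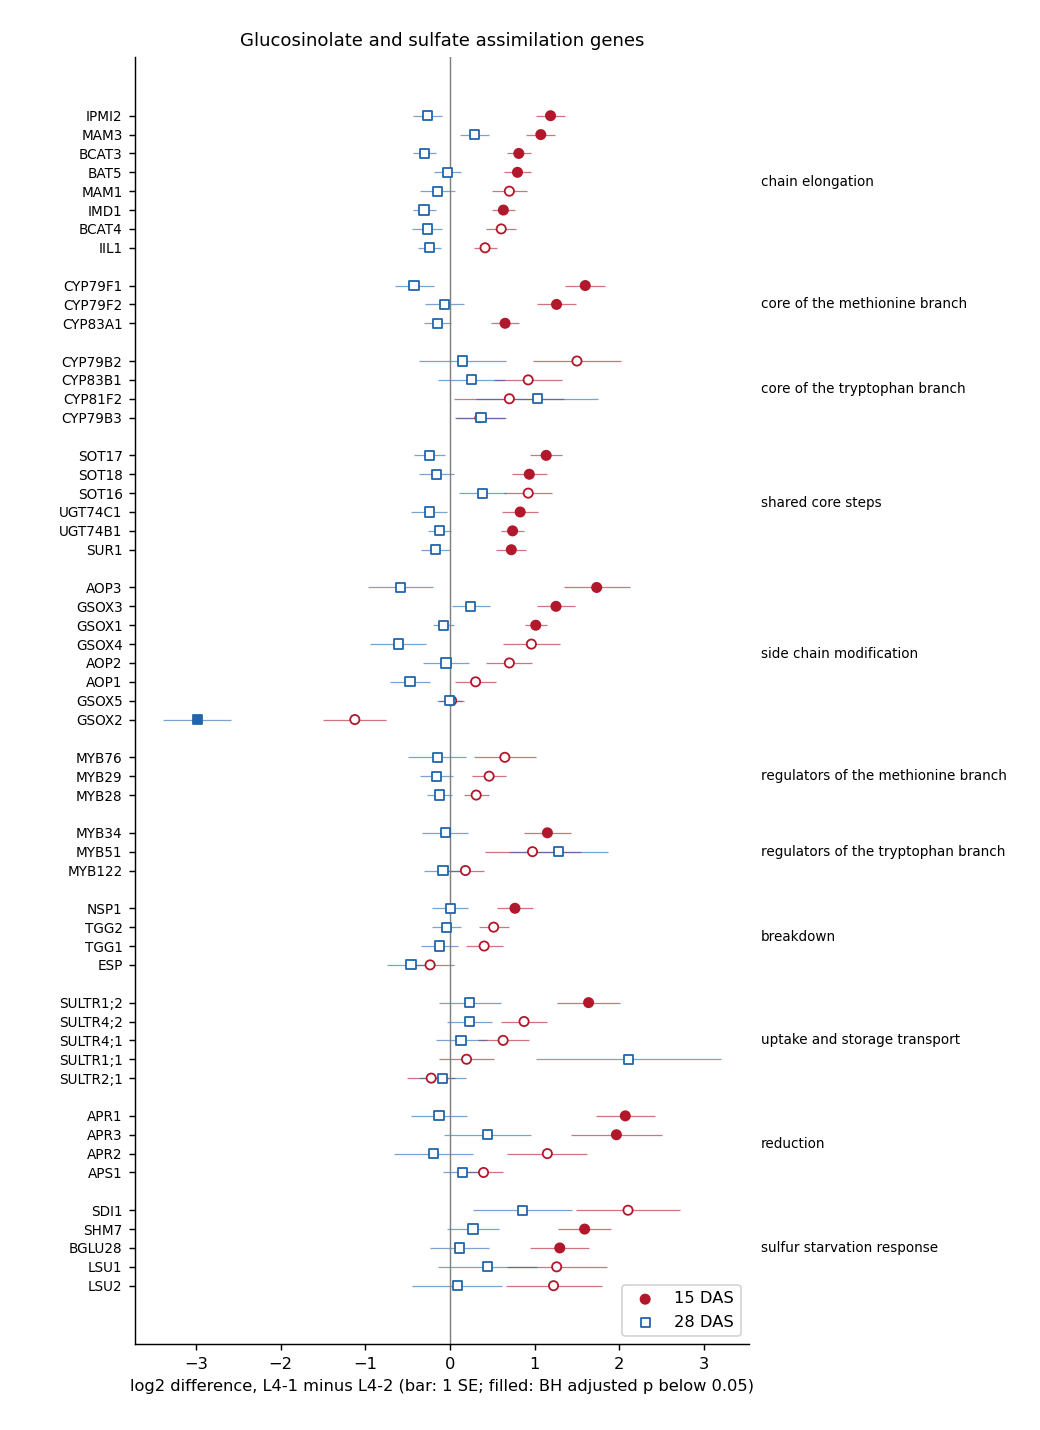
Log2 difference between L4-1 and L4-2 with its standard error for 39 glucosinolate and 14 sulfate genes, grouped by step, at 15 DAS (red circles) and 28 DAS (blue squares), filled where called. Seedling values lie to the right of 0 for most genes and leaf values lie around 0, with GSOX2 far to the left. The genes labelled as shared core steps were not split by branch.

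Set against the F1 hybrid, a comparison added after the values were seen, 11 glucosinolate genes were higher and 1 lower in L4-1 seedlings (median 0.59; 2.06% of all genes called), and 1 was called in L4-2 seedlings, lower (median -0.19; 0.945% of all genes called). For the 14 sulfate genes the medians were 1.65 in L4-1, with 7 called higher, and 0.27 in L4-2. In leaves 2 glucosinolate genes were lower in L4-1 (1.1% of all genes called) and 3 in L4-2 (1.66%). Both comparisons share the F1 libraries. GSOX1 averaged 25.4 CPM in F1 seedlings, 41.5 in C24 and 41.1 in Ler, so that L4-2 stood near the F1 and L4-1 near the parents, and APR1 averaged 11.6 CPM in F1 seedlings, 37.2 in C24 and 48.4 in Ler.

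Other values of the seedling libraries moved in the same comparison. The 8 root markers summed to 97.8 to 108 CPM in L4-1 seedlings and 44.4 to 44.8 in L4-2. PYK10, a beta-glucosidase of root cells and seedlings, made up most of that sum (98.1 and 88.8 against 37.3 and 36.0 CPM; log2 difference 1.35 ± 0.24, adjusted p = 0.0046, lost without seedling L4-2 pool A at 0.065). No root marker was at 0 in any of these libraries. PYK10, APR1, ADH1, SPL3 and PSEUDOSRKA each overlap another annotated gene. In bulk tissue, more cells of a type and more RNA per cell cannot be told apart. The 26 photosynthesis genes summed to 49204 to 49860 CPM in L4-1 seedlings and 58726 to 61966 in L4-2, the 8 flower organ markers to 17.9 to 19.5 against 10.3 to 11.5, and the 8 shoot meristem markers to 84.5 to 94.6 against 73.9. The part of these differences in the glucosinolate and sulfate results was not tested. In a fit of all 64 libraries, which adds batch 1, 4 glucosinolate and 3 sulfate genes were called higher at 15 DAS, and the fit of the 8 libraries alone called 9 and 2. Without 15 DAS L4-1 pool A, L4-1 pool B, L4-2 pool A or L4-2 pool B, glucosinolate calls numbered 8, 10, 3 and 11 and sulfate calls 1, 3, 3 and 1, and without either 28 DAS L4-2 pool there were 3 sulfate calls.

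Plant defensins, small antifungal proteins induced by jasmonate and ethylene, differed between the ages. PDF1.2 held 2.34 and 0.890 CPM in L4-1 seedlings against 37.9 and 17.0 in L4-2, and 39.8 and 23.8 against 2.55 and 7.13 in leaves. L4-1 was the low line in seedlings and the high one in leaves. The seedling difference was called (-4.10 ± 0.89, adjusted p = 0.0161), the leaf difference was not (2.73 ± 0.85, 0.175), and the interaction was (6.83 ± 1.23, 0.0151). PDF1.2c, PDF1.2b and PDF1.3 gave interactions of 7.38 ± 1.38 (adjusted p = 0.0185), 5.81 ± 1.31 (0.0407) and 5.25 ± 0.89 (0.0104). Defensin copies are near-identical, so reads may be split between them and the 4 are not independent. The PDF1.2 interaction was lost without seedling L4-1 pool A (0.068), L4-1 pool B (0.068) or L4-2 pool A (0.083), or without 28 DAS L4-2 pool A (0.066). PDF1.2c lost its interaction call without all but the seedling L4-2 pool B and both 28 DAS L4-1 pools (0.051 to 0.091), and PDF1.2b without all but the seedling L4-2 pool B and 28 DAS L4-1 pool B (0.11 to 0.24). PDF1.3 lost it without seedling L4-1 pool A, seedling L4-2 pool A or 28 DAS L4-2 pool B (0.075, 0.066 and 0.053). The seedling call of PDF1.2 was lost without L4-1 pool A, L4-1 pool B or L4-2 pool A (0.09, 0.15 and 0.14).

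Several genes were called higher in L4-1 at 15 DAS and not called at 28 DAS. FTM1, a stearoyl-carrier-protein desaturase gene, held 45.7 and 33.2 CPM in L4-1 seedlings against 0.780 and 0.259 in L4-2, and under 0.4 CPM in each leaf library. The seedling gap of 6.28 ± 1.07 log2 units (adjusted p = 0.00271) held with each library left out, while its interaction was not called (adjusted p = 0.122). GRP9, a glycine-rich protein, held 26.9 and 21.6 against 1.69 and 0.559 CPM in seedlings (4.45 ± 0.82, adjusted p = 0.00551, lost without seedling L4-2 pool B at 0.065). ADH1, the alcohol dehydrogenase of fermentation, held 62.3 and 19.6 against 4.63 and 3.62 CPM in seedlings and 8.93 and 9.13 against 7.97 and 7.35 in leaves, and its change between the ages was called (-3.08 ± 0.51, adjusted p = 0.0094, lost without seedling L4-2 pool A at 0.057). BAM5, a beta-amylase, and EARLI1, a lipid-transfer-like protein, were uneven between the L4-1 seedling pools, with 293 and 45.8 CPM and 184 and 18.5 CPM in pools A and B. Their 15 DAS calls (5.10 ± 1.26 and 4.61 ± 1.15, adjusted p = 0.03 and 0.0317) were lost without L4-1 pool A (0.32 and 0.50), L4-2 pool A (0.22 and 0.25) or L4-2 pool B (0.16 in both).

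**Figure D4:**
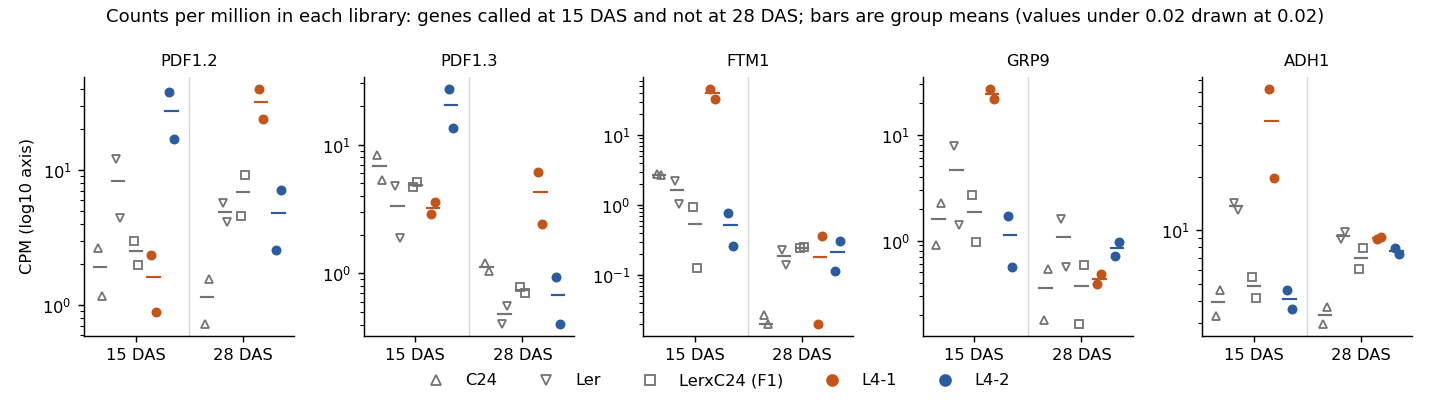
CPM of 5 genes called at 15 DAS and not at 28 DAS in each library (logarithmic axis), with the parents and the F1 hybrid in grey and bars at group means. The lines are apart in seedlings in every panel, and in leaves FTM1 overlaps while PDF1.2 and PDF1.3 lie higher in L4-1. Genes named for a call at one age alone had to show no overlap at that age. The share of all genes without overlap at 15 DAS is not given here, so the separation by itself is no result.

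Among genes called in leaves and not in seedlings, the glutathione transferase gene GSTU26 was higher in L4-1, with 8.32 and 9.07 CPM against 1.55 and 1.53 (2.5 ± 0.30, adjusted p = 0.000118), and in seedlings it held 2.66 and 2.83 against 1.38 and 1.38 (adjusted p = 0.0592). Its interaction was not called (0.0821), so the ages were not shown to differ. The same holds for GSOX2, INT2, PSEUDOSRKA and GLR2.7 below, none of which had a called interaction. All of them and GSTU26 were also called over both ages. GSOX2, the glucosinolate gene called at 28 DAS, was lower in L4-1 leaves with 1.18 and 2.01 CPM against 8.61 and 17.1 (-2.99 ± 0.40, adjusted p = 0.000462), near the Ler mean of 2.06 and the C24 mean of 9.35. In seedlings GSOX2 held 2.88 and 3.12 CPM in L4-1 against 7.41 and 5.69 in L4-2 (adjusted p = 0.107 in edgeR). Its interaction had an adjusted p of 0.102 in edgeR. The 28 DAS calls of GSTU26 and GSOX2 held with each library left out. The inositol transporter gene INT2 and the receptor-kinase pseudogene PSEUDOSRKA were higher (2.33 ± 0.42 and 4.40 ± 0.72), and the channel gene GLR2.7 lower (-2.29 ± 0.51), with calls lost without 28 DAS L4-1 pool A or L4-2 pool A for INT2 (0.072 and 0.13), without L4-1 pool B or L4-2 pool A for PSEUDOSRKA (0.054 and 0.095), and without any of L4-1 pool A, L4-1 pool B or L4-2 pool A for GLR2.7 (0.072, 0.27 and 0.28).

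FLC, the repressor of flowering, was lower in L4-1 over both ages (-0.93 ± 0.16, adjusted p = 0.00307, held with each library left out). It held 9.43 and 10.8 CPM against 18.5 and 24.7 in seedlings and 7.61 and 5.19 against 10.2 and 11.5 in leaves. Both lines were low next to C24, which averaged 78.4 CPM in seedlings, and above Ler at 0.644. Of the 26 flowering genes, 3 were called at 15 DAS, all lower in L4-1, where 1.7% of all genes were called lower. These were FLC, its relative MAF3 (-0.48 ± 0.13) and the phase-change gene SPL3 (-1.06 ± 0.27), and each call was lost without 1 or more seedling libraries. FLC lost its 15 DAS call without L4-1 pool A or L4-2 pool B (0.17 and 0.095), SPL3 without any of the 4 (0.061 to 0.38), and MAF3 without L4-1 pool A, L4-1 pool B or L4-2 pool A (0.36, 0.089 and 0.45). FLM, a second repressor, held 22.7 and 24 CPM in L4-1 seedlings against 15.4 and 11.4 without being called over both ages (0.91 ± 0.41, adjusted p = 0.288). The floral inducers FT and SOC1 were not called either (adjusted p = 0.28 and 0.375 over both ages), nor was ER, the gene mutated in Landsberg erecta, which both lines held at parental levels (70.0 and 77.8 against 74.3 and 84.6 CPM in seedlings, adjusted p over both ages 0.276).

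The other pathway lists had few calls, beside 2.12% of all genes called higher and 1.7% lower at 15 DAS. Of 31 jasmonate genes, 3 were higher and 1 lower in L4-1 seedlings. The higher ones were LOX2 of jasmonate synthesis (497 and 351 against 66.8 and 150 CPM, 1.97 ± 0.32, adjusted p = 0.00198), CORI3 and AOC1, and the lower one was PDF1.2. LOX2 kept its 15 DAS call with each library left out, CORI3 lost it without L4-1 pool A or L4-2 pool A (0.14 and 0.12), and AOC1 lost it without several libraries (0.052 to 0.40). At 15 DAS 3 of 18 cell wall genes, 2 of 32 auxin genes, 2 of 12 DNA methylation genes, and 1 each of 26 photosynthesis, 23 cell cycle, 21 flavonoid and 15 ethylene genes were called, all higher in L4-1. They included the expansin gene EXPA1 (0.92 ± 0.18, adjusted p = 0.00922), the auxin synthesis gene TAA1 (1.16 ± 0.24, 0.0122), and NRPD1 and AGO4 of RNA-directed DNA methylation (0.60 ± 0.12 and 0.65 ± 0.14). Without seedling L4-1 pool A those 4 calls were lost (0.075, 0.096, 0.098 and 0.16), as they were without L4-2 pool A (0.18, 0.17, 0.14 and 0.20). TAA1 also lost its call without L4-2 pool B (0.051), and AGO4 without L4-1 pool B or L4-2 pool B (0.058 and 0.060). The immune receptor gene SNC1 was the member called of 25 over both ages (1.36 ± 0.29, adjusted p = 0.0158), where 1.28% of all genes were called higher. It held 162 and 171 CPM against 51.1 and 54.6 in leaves, and no member of the list was called at 15 DAS or at 28 DAS. The call of SNC1 over both ages was lost without seedling L4-1 pool B or L4-2 pool A or either 28 DAS L4-2 pool.

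No member of the lists for salicylic acid (31 genes), PIF and shade (14), clock (25), cold and drought (17), heat shock (13) or senescence (14) was called at either age or over both in edgeR. At an unadjusted p below 0.05 the numbers at 15 DAS were 2, 2, 1, 2, 2 and 2 and at 28 DAS 5, 0, 1, 2, 3 and 0, and DESeq2 called 1 of them, a senescence gene at 15 DAS. PR1, the marker of salicylic acid responses, held 58.1 and 138 CPM in L4-1 seedlings against 87.6 and 60.8 (adjusted p over both ages 0.695), and ICS1, the first enzyme of that synthesis, had 0.374. The clock gene CCA1 and the growth regulator PIF4 had 0.777 and 0.887, and the immune receptor CSA1 was low in both lines at 2.2 to 2.61 CPM in seedlings, next to a C24 mean of 70.9 and a Ler mean of 2.69.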

How the data were processed

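The authors deposited raw read counts per gene for each age, which were the values tested. They also deposited normalised scores rounded to whole numbers, used only to check that each library was its counts multiplied by 1 factor. TAIR10 and FastQC are named per the submitters' processing notes, while no aligner, counter or strand setting is named there. Of 33321 gene rows, 32565 matched the reference annotation, from which names, chromosomes and gene order were taken.

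Counts were fitted in edgeR 4.0.16 (R 4.3.3, limma 3.58.1) with quasi-likelihood F tests, its default filter on low counts and TMM scaling, on 14 group means of the 28 libraries of batch 2. Contrasts were L4-1 minus L4-2, adjusted by Benjamini-Hochberg over 29735 genes at 0.05, and a standard error is the log2 difference divided by the square root of F. DESeq2 1.42.0 was an alternative, beside other scalings, filters, sets of libraries and a replicate block. All libraries of both lines are in 1 batch, so no within-batch split exists. Replicate pools differed by more than sampling noise, so none was counted as a duplicate.

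The comparison, the 18 pathway and 3 marker lists and the tests were chosen with earlier results of these data known. Genes were named by rule. Among called genes of at least 1 CPM, these were the largest differences in each direction over both ages, for the interaction and at one age alone. Those named over both ages or at one age alone also had to show no overlap of the lines at the ages concerned, and those named for the interaction did not. Up to 4 called members of each list and 13 fixed genes were added. In simulated data the test over both ages called 80% of 2-fold and 98% of 4-fold changes, and 7 of 29454 unchanged genes, among 29654 fitted. At single ages it called 47% (15 DAS) and 48% (28 DAS) of 2-fold and 89% and 91% of 4-fold changes, and 11 and 5 unchanged genes. The simulation drew negative binomial counts with the fitted dispersions and changed genes of at least 1 CPM by the same fold at both ages. It held no interaction effect and cannot gauge how calls depend on single pools.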

Additional observations from a re-analysis of the deposited data

Results flagged for a closer look

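The difference between L4-1 and L4-2 was not the same at 15 and 28 DAS for 330 genes by the line-by-age interaction of edgeR. Each value below is the log2 difference between the lines at 28 DAS minus that at 15 DAS, with the Benjamini-Hochberg adjusted p of edgeR. The retroposon SADHU1-2 had 3.44 (adjusted p = 0.00115), its higher level in L4-1 being wider in leaves, and UGT78D1 had -2.78 (0.00506), its lower level in L4-1 being wider in leaves. The defensin genes PDF1.2c, PDF1.2, PDF1.2b and PDF1.3 had 7.38, 6.83, 5.81 and 5.25. Of these, PDF1.2, PDF1.2c and PDF1.3 were called lower in L4-1 seedlings (adjusted p = 0.0161, 0.017 and 0.0182), PDF1.2b was not called there (0.0791), and none was called in leaves (0.0777 to 0.218). Each of the 4 interactions was lost without some single library, at 0.066 to 0.083 for PDF1.2, 0.051 to 0.091 for PDF1.2c, 0.11 to 0.24 for PDF1.2b and 0.053 to 0.075 for PDF1.3. GRP9 had -5.36 and ADH1 had -3.08, both called higher in L4-1 seedlings, and the interaction of ADH1 was lost without seedling L4-2 pool A (0.057). The extensin gene EXT10 had -2.59 (0.0248), with 2.51 ± 0.37 in seedlings and -0.07 ± 0.36 in leaves. MLP423, of the major latex protein family, had -2.64 (0.0407), with 0.41 ± 0.41 in seedlings and -2.23 ± 0.44 in leaves. Of the glucosinolate genes, 8 were called for the interaction, all with a lower difference at 28 DAS, and 0 without seedling L4-2 pool A (24 at an unadjusted p below 0.05). The interactions of GRP9 and MLP423 were lost with any one of the 8 libraries left out (0.071 to 0.13 and 0.052 to 0.16). That of EXT10 was lost without all but seedling L4-1 pool B and 28 DAS L4-1 pool A (0.055 to 0.13). Groups of 2 libraries are too small to test single libraries as outliers.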

How the results depend on the processing

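Counts of calls moved with the tool, the libraries fitted and the block. DESeq2 called 1322 genes over both ages, 2128 at 15 DAS, 635 at 28 DAS, 1139 for the interaction, 189 held and 20 glucosinolate genes for the interaction. The replicate block gave 2559, 4013, 970, 2127, 261 and 22, with 10 sulfate genes at 15 DAS and a parental share of 20.5%, and its calls included 675 of the 675, 1136 of the 1137, 275 of the 277 and 111 of the 112. The labels do not say what a replicate letter marks. Deviations of same-lettered L4-1 and L4-2 libraries from their group means correlated at 0.216 (15 DAS) and 0.551 (28 DAS) over 18883 genes. Over all 10 pairs of groups the correlation ran from -0.164 to 0.728 at 15 DAS and from 0.521 to 0.729 at 28 DAS. Same-lettered leaf libraries thus moved together in every pair of groups, and those of seedlings did not. The main fit took no letter as a pairing, so this shared shift stayed in its spread between leaf pools. At 28 DAS it called 277 genes, where the fit with the block called 970. The 8 libraries alone gave 202, 203, 72, 4, 39 and 0 (27 at an unadjusted p below 0.05), with 9 glucosinolate and 2 sulfate genes at 15 DAS, and with age as an additive term they gave 148 over both ages. Fits of 1 age gave 2540 at 15 DAS and 101 at 28 DAS. All 64 libraries gave 4 glucosinolate and 3 sulfate genes at 15 DAS and 5 glucosinolate interactions. Without a minimum fold the parental share was 70.4%, and with at least 4 log2 units 30 genes were at opposite parental levels. With 1 library left out, ranges were 368 to 569 over both ages, 208 to 1218 at 15 DAS, 169 to 261 at 28 DAS, 18 to 253 for the interaction, 69 to 96 held, 46.0 to 65.6% for the parental share, 64 to 82 genes at opposite levels, 3 to 18 glucosinolate and 1 to 4 sulfate genes at 15 DAS, and 0 to 5 glucosinolate interactions. The cause of these movements was not tested.

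Of 2615 values of 176 named gene results under alternatives, 2054 kept their call status, 558 lost the call and 3 gained one. Where the main or the alternative value was called, 0 turned direction. Sign changes between values without a call were counted as kept. Over both ages, values under the alternatives ran from -0.469 to 0.0154 for CCA1 and from -0.196 to 0.368 for PIF4. The 3 gained were FLM over both ages with additive age (adjusted p = 0.0183) and with the 8 libraries alone (0.0208), and FT over both ages under the replicate block (0.0245). Of the 176, 62 kept their call status under every alternative run and 78 with each library left out. Genes at 0 in one line are limited by depth to the bounds given.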

Other observations

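The 7 held genes with no parental call were looked at after their values were seen. The uncharacterised gene AT1G50290 held 9.84 and 25.1 CPM in L4-1 seedlings against 0.847 and 1.18 in L4-2, and 29.6 and 66.2 against 0.906 and 0.654 in leaves. C24, Ler and F1 seedlings averaged 46.7, 34.0 and 40.2 CPM, so that L4-2 was the low line next to all 3. L3-1 seedlings, at 1.31 and 1.15 CPM, were also low, while L3-2 held 18.3 and 28.9. The others had smaller gaps over both ages: TOC33, a receptor of chloroplast protein import (-0.46 ± 0.08), the Rab GTPase gene RABA1b (-0.65 ± 0.08), SAMBA, a regulator of the anaphase-promoting complex (-1.03 ± 0.15), the pseudogene AT1G35513 (-1.26 ± 0.21), the transporter gene UMAMIT22 (1.25 ± 0.14) and the transcription factor gene NF-YA3 (0.85 ± 0.10). RABA1b overlaps AT1G16916.

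Among held genes, L4-2 lay at least 1 log2 unit below both parents at both ages for 2, AT1G50290 and AT2G10931, and L4-1 for 2, AIG1 and AT1G66860. No held gene lay that far above both parents, where 21 and 14 of all tested genes did in L4-1 and L4-2. AIG1 was also uneven in L3 seedlings, at 26.8 and 3.57 CPM in L3-1.

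Of 23 cell cycle genes, 17 had a positive log2 difference at 15 DAS (median 0.23) and 1 at 28 DAS (median -0.41), and 1 was called at each age. Of all 29735 genes, 15253 and 15264 were positive, with a median of 0.01 at each age. MCM2 and MCM7, subunits of the replicative helicase, were called for the interaction (-1.48 ± 0.30 and -0.82 ± 0.17, adjusted p = 0.0247 and 0.0284 in edgeR). MCM2 was called higher in L4-1 seedlings (0.87 ± 0.21, adjusted p = 0.0258) and MCM7 lower in L4-1 leaves (-0.53 ± 0.12, 0.0407). The seedling call of MCM2 was lost without L4-1 pool A or L4-2 pool A of that age (0.33 and 0.36), and its interaction without either of these (0.13 and 0.15), 28 DAS L4-1 pool A (0.066) or L4-2 pool B (0.093). The leaf call of MCM7 was lost without seedling L4-1 pool A or B (0.057 and 0.056), 28 DAS L4-1 pool A or B (0.16 and 0.14) or L4-2 pool B (0.30), and its interaction without any of these or seedling L4-2 pool A (0.063 to 0.16). Shoot meristem markers summed to 84.5 to 94.6 CPM in L4-1 seedlings and 73.9 in both L4-2 seedling libraries, and their part in these values was not tested.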
